A study of Mus musculus with 8 samples.

Results

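The activating arm of the circadian clock was examined in mouse embryonic fibroblasts that carry or lack the cryptochromes. Its genes are Arntl (now named Bmal1), Arntl2 (Bmal2), Clock and Npas2. The members were all probe sets, the groups of short probes that each measure 1 transcript region, that the annotation of this Affymetrix 3' expression array assigns to 1 of these 4 genes and to no other gene. This gave 8 of the 30506 probe sets in the deposited table: 2 for Arntl, 2 for Arntl2 and 4 for Clock. These 3 genes stand among 13307 with a probe set of their own, and Npas2 was not analysed here. Total RNA came from 8 lines of primary fibroblasts, cells grown out of embryos without immortalisation, with 1 array per line. The 4 WT lines were wild-type, and the 4 Cry DKO lines lacked both Cry1 and Cry2 (Cry1-/- and Cry2-/-). Every line was an independent isolate on a near-C57BL/6J background and was harvested untreated while proliferating in medium with 10% serum under 3% oxygen. The cultures were not synchronised, so each value is an average over cells at different clock phases, and rhythms of single cells are not visible in it.

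CLOCK and its paralog NPAS2 are transcription factors of the bHLH-PAS family, and each pairs with ARNTL or ARNTL2. The pairs bind E-box elements and switch on the Period and Cryptochrome genes, whose proteins return to the nucleus and block the same pairs. A linked loop runs through the nuclear receptors NR1D1 and NR1D2, also called REV-ERBs, which are E-box targets. They repress Arntl through ROR elements in its promoter, where the ROR receptors activate it instead.

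The promoter of Arntl is shown because its ROR elements tie it to those receptors. In RefSeq windows of assembly GRCm38.p6, which run from 250 bases before to 50 bases after a transcript start, Arntl had 2 listed starts, 46 bases apart. Both lie on chromosome 7, on the plus strand. The letters AAAGTAGGT, the core that its ROR elements share, were searched on both strands and found at 2 sites there, given with the match in capitals:
Arntl ROR element, upstream copy, chr7:113207491-113207520: gattggtcggAAAGTAGGTtagtggtgcga
Arntl ROR element, downstream copy, chr7:113207527-113207556: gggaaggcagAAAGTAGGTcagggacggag

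Of all 32851 promoter windows 60 held these letters (0.183%). No window of Clock, Npas2 or Arntl2 did. The downstream copy overlaps the shorter nuclear receptor motif AGGTCA, which was present in 16.3% of windows. Among the other members AGGTCA was found once, in the third window of Clock. The E-box CACGTG (7.15% of windows) and the D-box TTATGNAA (3.38%) were absent from every window of the 4 genes. The bases before the first Arntl start are shown because they hold 7 copies of the CCAAT box, all read on the opposite strand as ATTGG and set in capitals:
Arntl upstream, chr7:113207215-113207464: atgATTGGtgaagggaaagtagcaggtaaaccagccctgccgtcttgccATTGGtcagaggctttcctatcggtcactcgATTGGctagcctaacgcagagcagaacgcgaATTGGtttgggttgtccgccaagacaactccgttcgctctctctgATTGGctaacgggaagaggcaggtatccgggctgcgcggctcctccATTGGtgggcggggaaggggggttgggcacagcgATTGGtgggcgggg

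With the eighth copy after the start, this window held 8, and it was the 1 window of 32851 with that many. A CCAAT box was present in 37.4% of windows. The third window of Clock held 1 copy, and those of Npas2 and Arntl2 held none. The members also differed in base composition: G and C made up 72.7% of the Npas2 window and 76.3%, 76.7% and 47.0% of the Clock windows. They made up 60.7% and 61.7% of the Arntl windows and 43.3% of the Arntl2 window. These matches describe letters only.

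The values are probe set signals on a log2 scale, with the base inferred from their range. All differences are Cry DKO minus WT, with n = 4 lines per genotype. A floor at the 40th percentile of probe set means (6.06) separated dim probe sets, whose spread is larger. The median within-group SD was 0.14 above the floor and 0.42 below it. Of the 8 members, 5 lay above the floor and entered the limma fit of 16333 probe sets. The 3 below it, 1 of Arntl and both of Arntl2, take their p-values from a second limma fit without a floor. In the first fit 1112 probe sets, 6.81% of those tested, passed an adjusted p of 0.05 (599 higher, 3.67%, and 513 lower, 3.14%). This count fell to 577 without WT line 1, 599 without WT line 2 and 481 without WT line 3. Array medians lay between 6.78 and 6.79, and 2 arrays correlated at 0.973 to 0.977 where they shared a genotype and at 0.967 to 0.975 where they did not. Of 12 fibroblast markers 9 were above the floor, while Pdgfra, Dcn and Lum were below it. Of these 9 tested markers, 1 fell (Fap, by 0.69, limma adjusted p = 0.0297), none rose and 3 had an unadjusted p under 0.05. The mean over all 12 ran from 10.59 to 10.83 in WT and from 10.41 to 10.57 in Cry DKO lines, without overlap. Macrophage markers were present as well. All 19 were above the floor, 9 rose, none fell and 16 had an unadjusted p under 0.05 in limma, with a median difference of 0.75. Of all 9511 genes above the floor, each read by its brightest probe set, 4.33% were higher and 3.45% lower. The mean over the macrophage list ran from 8.06 to 8.66 in WT and from 8.70 to 9.67 in Cry DKO lines, without overlap. Markers of endothelial cells were all below the floor (4 of 4), and of the tested epithelial (1), muscle (2) and neural (2) markers none passed in limma, with 1, 2 and 0 at an unadjusted p under 0.05. Such p-values were common among all probe sets. The member Clock 1418660_at, at an unadjusted limma p of 0.0407, ranked only 3451st of 16333 by p-value. The share of all genes at that threshold is not given here.

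The deleted genes were read first. Cry1 had 7.27, 6.51, 6.95 and 6.42 in WT lines 1 to 4 and 6.32, 5.84, 6.50 and 6.50 in Cry DKO lines 1 to 4. Its mean differed by -0.50 (SE 0.21), short of the threshold (limma adjusted p = 0.18). For Cry2 the mean was -0.34 from that of WT (SE 0.13, limma adjusted p = 0.143). The groups overlapped for both. No source used here places these probes within or outside the deleted parts, and neither gene therefore tests the genotype labels.

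Arntl, which encodes a partner of CLOCK and NPAS2, was reduced in Cry DKO fibroblasts. Its brighter probe set, 1425099_a_at, read 8.132, 8.195, 7.997 and 8.245 in WT lines 1 to 4. In Cry DKO lines 1 to 4 it read 6.618, 6.684, 6.306 and 6.709. The highest Cry DKO line lay far below the lowest WT line, and all 8 lines were above the floor. The means were 8.14 ± 0.11 (SD, n = 4) and 6.58 ± 0.19, a difference of -1.56 (SE 0.11, limma adjusted p = 4.79e-05). On a linear scale Cry DKO lines held 33.8% of the WT signal, with a 95% interval of 28.6% to 40.01%. Of the 5 members above the floor it was the 1 that passed, where 6.81% of all tested probe sets did, and the 1 whose groups did not overlap, where 15.4% of all tested probe sets did not. It ranked 5th of 16333 by p-value, and 9 probe sets had a lower difference.

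The second Arntl probe set, 1457740_at, was dim, with a mean at the 27.2nd percentile of the table. It read 5.32, 5.47, 5.30 and 5.61 in WT lines 1 to 4 and 4.53, 5.08, 4.45 and 5.00 in Cry DKO lines 1 to 4. Every Cry DKO line was again below every WT line. Of the 8505 probe sets below the floor, 5.7% had groups that did not overlap in 1 direction or the other. The difference was -0.66 (SE 0.21), and it did not pass in the fit without a floor (limma adjusted p = 0.108). The exact two-sided permutation test, over 70 divisions of the 8 lines, gave p = 0.0286 for each Arntl probe set, among 8 such tests. This is the smallest value the design allows. Every probe set without overlap takes it, so it repeats the separation of the lines and adds no support. Both probe sets ordered the lines in a similar way: WT line 4 was the highest on both, WT line 3 the lowest WT line on both and Cry DKO line 3 the lowest of all on both. The correlation of the deviations from the genotype means was 0.80 over the 8 lines, which share arrays between the probe sets.

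**Figure D1:**
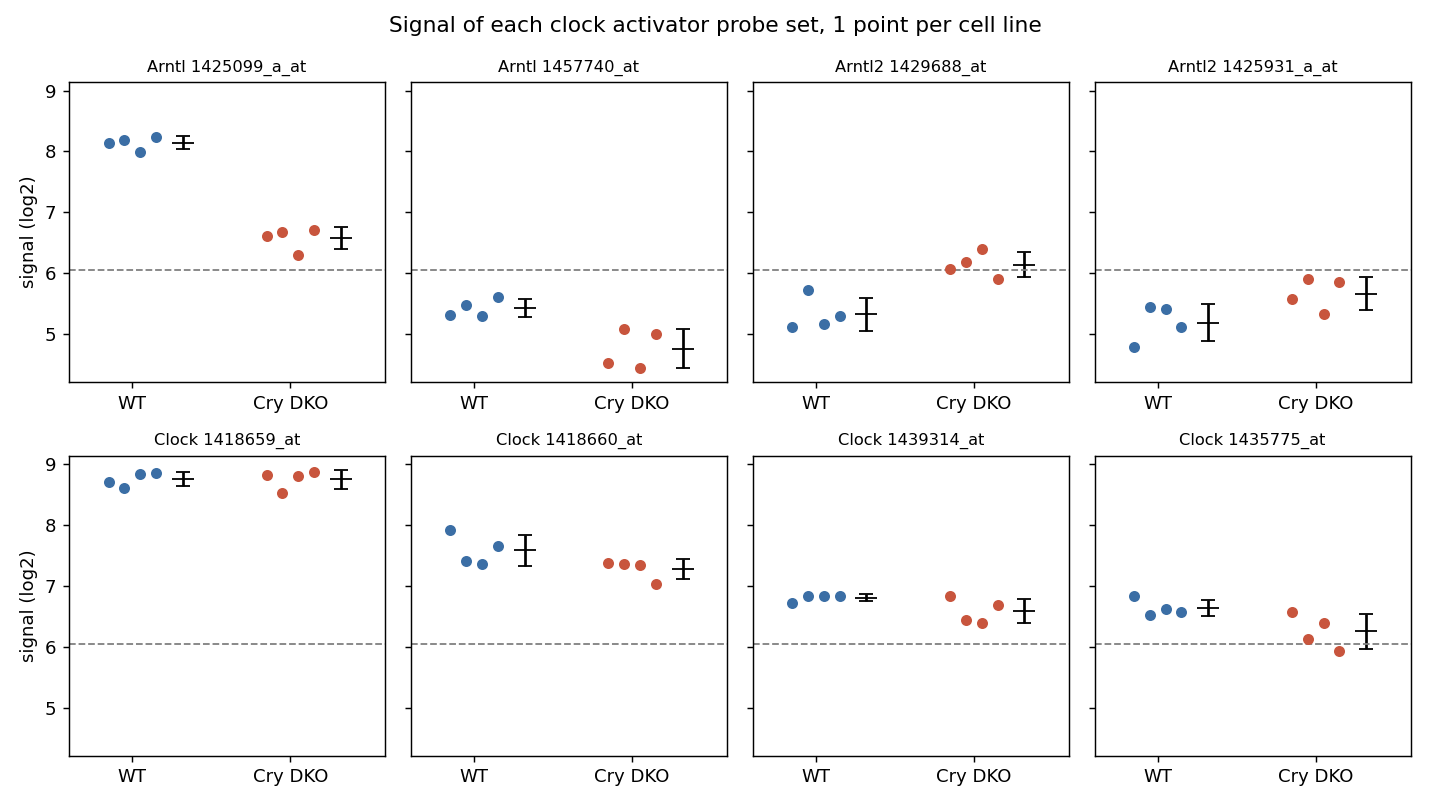
Signal (log2) of the 8 member probe sets, 1 point per line in the order of replicate numbers 1 to 4, with the mean and SD as black marks and the floor of 6.06 as a dashed line. Both Arntl probe sets and Arntl2 1429688_at have groups that do not overlap, while all 4 Clock probe sets overlap. Of all 24838 probe sets with 1 gene, 12.1% have groups that do not overlap.

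Arntl2, the paralog that can take the place of ARNTL, read in the opposite direction at a low signal. Probe set 1429688_at read 5.11, 5.72, 5.17 and 5.31 in WT lines 1 to 4 and 6.07, 6.18, 6.40 and 5.91 in Cry DKO lines 1 to 4. All 4 WT lines were below the floor, and 3 of 4 Cry DKO lines were above it. The lowest Cry DKO line was above the highest WT line, with means of 5.33 ± 0.27 (SD, n = 4) and 6.14 ± 0.20. The difference was 0.81 (SE 0.18, 95% interval 0.42 to 1.21, limma adjusted p = 0.0293 in the fit without a floor). No ratio to WT is given, since the WT signal lay below the floor. With 1 Arntl probe set it made 2 of 8 members called in that fit, where 3.99% of all 24838 probe sets passed (2.18% higher and 1.81% lower). Of the 8505 probe sets below the floor 0.952% passed there (0.494% higher and 0.459% lower), and 5.7% had groups that did not overlap. The exact permutation p was 0.0286, the smallest possible, which every probe set without overlap takes.

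This call was not stable. With 1 line left out, 6 of 8 fits lost it. The adjusted p by limma was 0.0771 without WT line 1, 0.0853 without WT line 3 and 0.0615 without WT line 4. It was 0.054 without Cry DKO line 1, 0.0702 without Cry DKO line 2 and 0.0842 without Cry DKO line 3. The difference itself stayed between 0.73 and 0.94. The call also ended without an intensity trend in the test (adjusted p = 0.0662). The other probe set, 1425931_a_at, had values of 4.78, 5.44, 5.41 and 5.13 in WT and 5.58, 5.91, 5.33 and 5.85 in Cry DKO lines, with Cry DKO line 3 inside the WT range. Its difference of 0.48 (SE 0.21) did not pass (limma adjusted p = 0.246, exact permutation p = 0.0857). The probe sets ordered the lines differently: Cry DKO line 3 was the highest on 1429688_at and the lowest Cry DKO line on 1425931_a_at.

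Clock, which encodes a partner of ARNTL, had no probe set that passed. The brightest, 1418659_at, read 8.71, 8.61, 8.84 and 8.86 in WT lines 1 to 4 and 8.83, 8.53, 8.80 and 8.87 in Cry DKO lines 1 to 4. The groups covered almost the same range, and the difference was 0.00 (SE 0.09, limma adjusted p = 0.99). Its 95% interval ran from -0.20 to 0.20, or 87.2% to 115% of the WT signal.

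The other 3 Clock probe sets were lower on average in Cry DKO lines, and none passed in limma. Probe set 1418660_at read 7.91, 7.41, 7.36 and 7.66 in WT lines and 7.38, 7.36, 7.34 and 7.03 in Cry DKO lines. Its difference was -0.31 (SE 0.13, adjusted p = 0.193). Cry DKO line 4 stood apart below, and the other lines overlapped. Probe set 1435775_at read 6.83, 6.53, 6.63 and 6.57 in WT lines and 6.58, 6.14, 6.39 and 5.93 in Cry DKO lines. Its difference was -0.38 (SE 0.15, adjusted p = 0.165). Here 3 of 4 Cry DKO lines were below all WT lines and Cry DKO line 1 was within their range. Probe set 1439314_at read 6.72, 6.83, 6.84 and 6.84 in WT lines and 6.83, 6.45, 6.40 and 6.69 in Cry DKO lines, with a mean change of -0.21 (SE 0.12, adjusted p = 0.323) and Cry DKO line 1 among the WT values. The exact permutation p was 0.0857 for each of these 3 and 0.943 for 1418659_at.

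The differences of the 4 Clock probe sets had intervals that overlap, and no test of a difference among them was run. They spanned 0.38, where the median span over the 391 genes with 4 probe sets above the floor was 0.20 and 87.5% of those genes had a smaller span. Cry DKO line 4 had the highest Cry DKO signal on 1418659_at and the lowest on 1418660_at and 1435775_at. The deviations of that latter pair from the genotype means had a correlation of 0.66 over the 8 lines. Those of 1418659_at had correlations of -0.21 and 0.11 with them and of 0.48 with 1439314_at. No source used here says which transcript end each probe set measures.

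**Figure D2:**
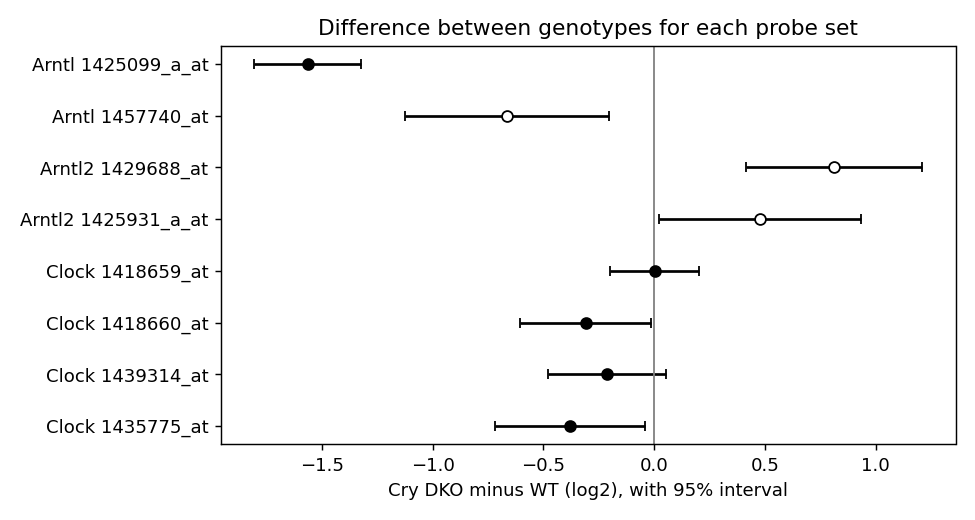
Difference between genotypes (Cry DKO minus WT, log2) with its 95% interval from limma for each probe set; filled points lie above the floor and open points below it. Arntl 1425099_a_at lies at -1.56, Arntl2 1429688_at at 0.81 and the Clock probe sets between -0.38 and 0.00.

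**Figure D3:**
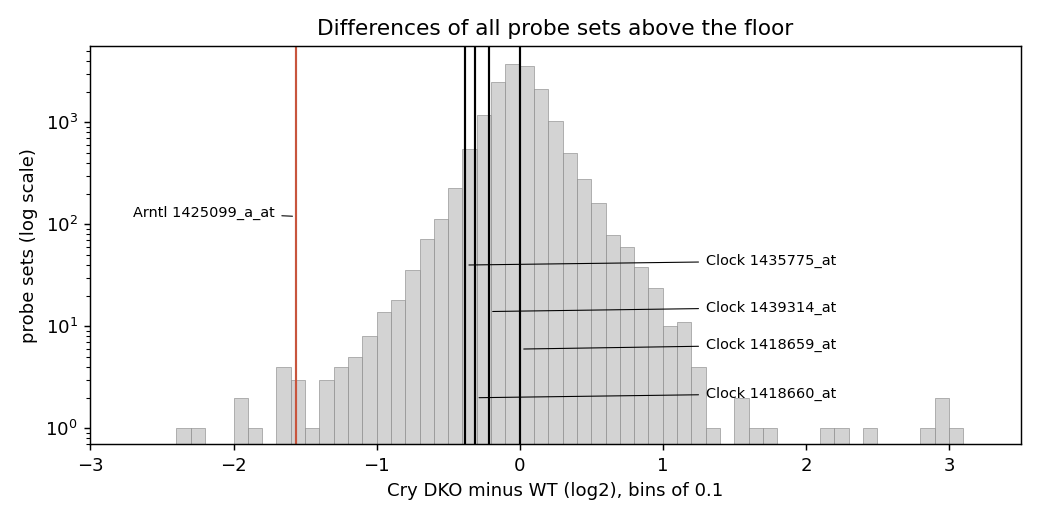
Number of probe sets (log scale) by difference between genotypes (log2, bins of 0.1) for the 16333 probe sets above the floor, with the 5 members among them as vertical lines. Arntl lies in the lower tail, with 9 probe sets below it. The Clock lines at -0.38, -0.31, -0.21 and 0.00 rank 575th, 982nd, 2009th and 8591st from the lowest.

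Whether the members changed unequally was tested on the gap between them within each line, using the probe set of highest mean for each gene. With Npas2 not analysed, 3 pairs remained. Arntl minus Clock was -0.58, -0.41, -0.84 and -0.61 in WT lines 1 to 4 and -2.21, -1.84, -2.50 and -2.16 in Cry DKO lines 1 to 4. The groups did not overlap, and the gap shifted by -1.57 (95% interval -1.96 to -1.17, exact permutation p = 0.0286, adjusted over the 3 pairs 0.0429). Arntl minus Arntl2 shifted by -2.38 (95% interval -2.92 to -1.83, exact permutation p = 0.0286, adjusted 0.0429), again without overlap. With the mean over all probe sets of each gene these shifts were -0.89 and -1.76, so the first shrank by more than 1.5 times. Arntl2 minus Clock shifted by 0.81 (95% interval 0.24 to 1.38) and did not pass (exact permutation p = 0.0571, adjusted 0.0571), and WT line 2 (-2.89) lay inside the Cry DKO range of -2.96 to -2.34. With the mean over all probe sets it passed (shift 0.87, exact permutation p = 0.0286). It also passed in limma with a block on replicate number (shift 0.81, adjusted p = 0.00201), though no label says what same-numbered lines share. These shifts show unequal change and do not compare the amounts of the transcripts. Any gap without overlap takes the exact permutation p of 0.0286. The gaps with Arntl2 rest on a dim signal, since all 4 WT lines of 1429688_at were below the floor. The size of their shifts is therefore uncertain.

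Macrophage and fibroblast markers moved with genotype in the same lines, and their part in the differences of the members was not tested. The macrophage marker mean was 8.70 in Cry DKO line 3, the lowest of its group, and 8.66 in WT line 1, the highest of its group. In these lines Arntl 1425099_a_at read 6.31 against 8.13, Arntl2 1429688_at read 6.40 against 5.11 and Clock 1418659_at read 8.80 against 8.71. Cry DKO line 3 was also the lowest of all lines on that Arntl probe set and the highest on that Arntl2 probe set. The fibroblast marker mean was 10.41 in Cry DKO line 3 and 10.59 in WT line 1. Single lines cannot test the part of cell mixture. In bulk RNA, fewer cells of a type and less RNA per cell cannot be told apart.

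Of 5 listed nuclear receptors that act on ROR elements, 3 had a probe set, and no test of a difference among them was run. Nr1d2, a repressor of Arntl, read 10.09, 9.91, 10.07 and 10.02 in WT lines 1 to 4 and 11.03, 10.94, 11.02 and 11.01 in Cry DKO lines 1 to 4, without overlap. It rose by 0.98 (SE 0.06, limma adjusted p = 6.14e-06), and its second probe set gave 0.98 as well (SE 0.14). Nr1d1, the other repressor, read 6.97, 6.68, 7.13 and 7.06 in WT and 7.72, 7.52, 7.49 and 7.11 in Cry DKO lines. Its difference of 0.50 (SE 0.14) did not pass (limma adjusted p = 0.0597), and Cry DKO line 4 lay inside the WT range. Without that line it passed (0.61, limma adjusted p = 0.0227). Rora, an activator, differed by -0.12 (SE 0.13, limma adjusted p = 0.62), and none of its 8 probe sets passed. So 1 of 3 tested receptors rose and none fell, beside 4.33% of 9511 genes higher and 3.45% lower with each gene read by its brightest probe set.

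**Figure D4:**
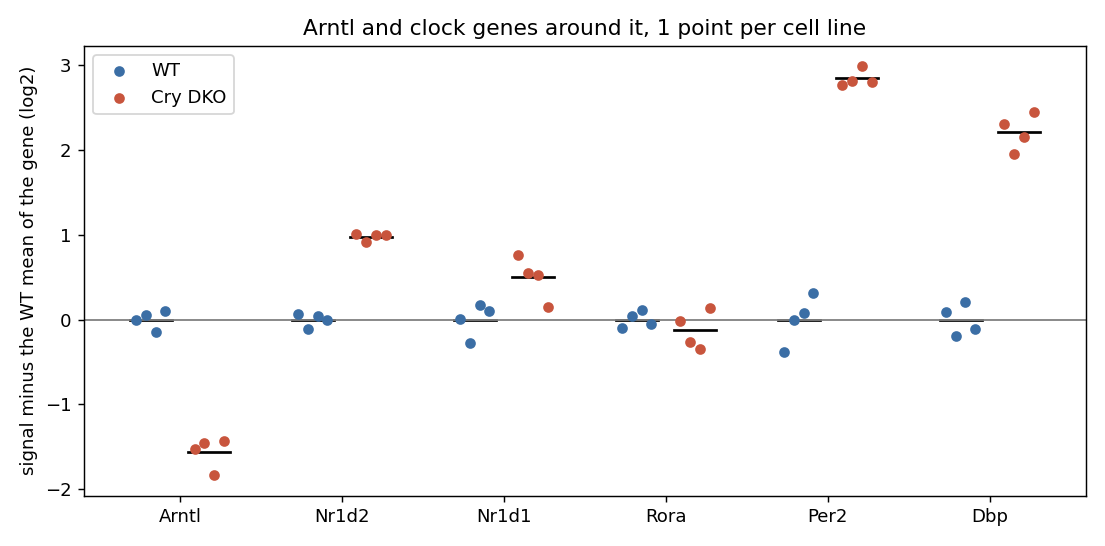
Signal of each line minus the WT mean of the gene (log2) for Arntl 1425099_a_at, the receptors Nr1d2, Nr1d1 and Rora, and the E-box genes Per2 and Dbp; black bars are group means. Arntl lies 1.56 below its WT mean where Nr1d2 lies 0.98 above, and Rora overlaps between the genotypes.

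The genes that the activators switch on were mostly higher while Arntl was lower. Of 8 clock repressors 6 were above the floor, 4 rose and none fell, beside 4.33% of all 9511 genes higher and 3.45% lower. Their median was 0.67, beside -0.01 over all 9511 genes. The 2 tested repressors that were not called are the deleted genes Cry1 (-0.50) and Cry2 (-0.34). Per2, a partner of the cryptochromes, rose by 2.84 (SE 0.14, limma adjusted p = 2.61e-06) and entered the fit through its Cry DKO level, since its WT mean of 5.53 was below the floor. Ciart rose by 1.80, Bhlhe40 by 0.54 and Per1 by 0.79 (limma adjusted p = 0.0385). Per1 was no longer called in 5 of 8 fits without 1 line, namely without WT lines 1 and 2 (adjusted p = 0.0614 and 0.0553) and without Cry DKO lines 1, 2 and 3 (0.0815, 0.0776 and 0.0901).

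Of 6 clock outputs 5 were tested, 4 rose and 1 fell, with a median of 0.48, beside the same 4.33% higher and 3.45% lower over all genes. Dbp, a transcription factor that binds D-boxes, rose by 2.21 (SE 0.12, limma adjusted p = 5.15e-06), its relative Tef by 0.97, the mitotic inhibitor kinase Wee1 by 0.48 and Nampt, an enzyme of NAD salvage, by 0.45. Nfil3, which represses through D-boxes and is itself controlled through ROR elements, fell by 0.46 (SE 0.11, limma adjusted p = 0.0354). Its promoter window held no AAAGTAGGT, and a cause shared with Arntl was not tested. Its call ended in 6 of 8 fits, without WT lines 1, 2 and 3 (adjusted p = 0.0846, 0.0935 and 0.0684) and without Cry DKO lines 1, 3 and 4 (0.0638, 0.0542 and 0.0552). A CACGTG E-box lay in a promoter window of 5 of the 13 listed repressors, NR1D receptors and outputs that have a window, namely Bhlhe41, Ciart, Cry1, Per1 and Tef, and of 8.09% of all 27025 genes.

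**Figure D5:**
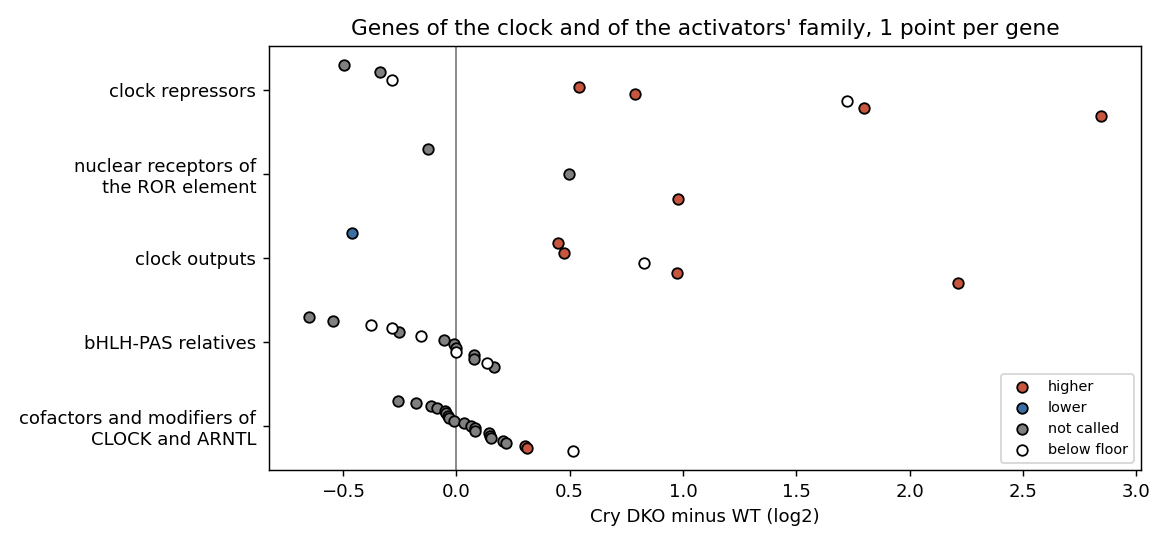
Difference between genotypes (Cry DKO minus WT, log2) for each gene of 5 lists, coloured by whether it passed as higher or lower, did not pass, or lay below the floor. Repressors and outputs reach 2.84 and 2.21, while bHLH-PAS relatives and cofactors lie between -0.65 and 0.52.

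Of 15 bHLH-PAS genes, the family that includes the hypoxia and dioxin sensors and the NCOA coactivators, 14 had a probe set and 9 were above the floor. In limma none of the 9 passed in either direction, a count near the 7.78% of all genes called, and their median was -0.01. For 4 of them the unadjusted p was under 0.05, which was common among all probe sets, as described for the markers. The groups of 1, Hif1a, did not overlap, where 16.8% of all 9511 genes had such groups. The smallest p-values were those of Hif1a, the oxygen-regulated subunit of HIF (0.17, SE 0.06, limma adjusted p = 0.0986), and Epas1, its relative (-0.54, SE 0.20, limma adjusted p = 0.136). Without Cry DKO line 1 Epas1 passed (-0.73, adjusted p = 0.0369), and without Cry DKO line 4 the dioxin receptor gene Ahr did (-0.92, adjusted p = 0.0495). Arnt, the relative after which Arntl is named, had a difference of -0.05 (SE 0.11).

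Of 25 listed cofactors and modifying enzymes of CLOCK and ARNTL, 20 were tested, 2 rose and none fell, with a median of 0.05. This count is near the 7.78% of all 9511 genes called in either direction. In limma 4 of the 20 had an unadjusted p under 0.05, which was common among all probe sets, as described for the markers. The groups of 4 did not overlap, where 16.8% of all 9511 genes had such groups. Parp1, a poly(ADP-ribose) polymerase, rose by 0.30 (SE 0.06, limma adjusted p = 0.0118). Sfpq, which encodes an RNA-binding protein, rose by 0.31 (SE 0.08, limma adjusted p = 0.0378). The call of Sfpq ended in 6 of 8 fits: without each of WT lines 1, 2, 3 and 4 (adjusted p = 0.0969, 0.0609, 0.101 and 0.0649) and without Cry DKO lines 1 and 2 (0.063 and 0.0605). The acetyltransferase genes Crebbp and Ep300, at -0.05 and -0.26, did not pass, nor did the casein kinase gene Csnk1e at -0.18 (limma adjusted p = 0.0779).

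The genes whose pattern over the 8 lines was most like that of Arntl 1425099_a_at, by Pearson's r among 9510 genes, were Gadd45g (0.981), Tomm40l (0.979), Mfap2 (0.978), Cyp4f16 (0.976) and Ptprm (0.973). Their own differences were smaller, from -0.48 for Tomm40l to -0.18 for Ptprm. Those most opposed were Nr1d2 (-0.987), Per2 (-0.981), Dbp (-0.979), Bub1 (-0.977) and Usp1 (-0.977). Bub1 is a spindle checkpoint kinase and Usp1 a deubiquitinating enzyme of DNA repair, and they rose by 0.54 and 0.41. An r of at least 0.95 was reached by 25 genes and one of -0.95 or below by 38. These values rest mainly on the gap between genotypes and on shared arrays. For Clock 1418659_at, where the genotypes did not differ, the most similar genes were 2310057M21Rik (0.967), Scaf8 (0.963) and Fnip1 (0.942). All of these had differences near 0, between -0.02 and 0.03, so here the likeness lay in how single lines varied, with Cry DKO line 2 the lowest and WT line 2 the second lowest for Clock and for each of the 3.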

How the data were processed

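Arrays of 4 WT and 4 Cry DKO lines were grouped by sample title. As deposited, the signals are log2 values (base inferred from the range of 0.0675 to 14.3). GCOS is named by the submitters' processing notes; no source used here gives the probe summary or normalisation. No array duplicated another. Values were used as deposited. Control probe sets (61) and those with several genes (658) or no listed gene (4949) were left out, which left 24838. Each probe set with a mean over 8 arrays at or above the 40th percentile entered limma 3.58.1 (R 4.3.3; empirical Bayes with a trend on intensity) and Benjamini-Hochberg adjustment at 0.05. Independent lines supply the spread behind each p-value, and their number limits the precision. Genes in lists were represented by their probe set of highest mean. Exact permutation tests used SciPy 1.17.1. On simulated data with the means and spreads of the 16333 probe sets, 5 runs, the Cry DKO and WT fit called 58.8% of probe sets changed by 0.5, 92.4% of those changed by 1 and 0.0533% of unchanged ones. Each run changed 200 probe sets and drew independent noise, without effects shared by an array or by cell mixture. These rates need not hold for the real arrays, and they do not cover members below the floor.

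Gene symbols come from the platform's annotation, updated through gene identifiers (24757 matched). Promoter sequences are RefSeq's, GRCm38.p6; no build is named for the array. Named genes are all members, Cry1, Cry2, Nr1d1, Nr1d2, Rora, Per2 and Dbp, up to 6 called members of each list (up to 2 where none passed), and those most like or opposed to a member. Per-line values, Arnt, Ahr, Crebbp, Ep300, Csnk1e and the markers named beyond this were chosen after their values were seen. Members and lists were chosen with earlier results of these data known. Alternatives covered normalisation, floors, empirical Bayes settings, array weights, a replicate block, 1 probe set per gene and each line left out.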

Additional observations from a re-analysis of the deposited data

Results flagged for a closer look

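In 36 groups of 4 lines (the 8 members, the 3 pairs and 7 clock genes, in each genotype) 4 had a line far from the other 3, and chance flags about 1 in 20 such groups. For Clock 1418660_at, Cry DKO line 4 read 7.03 where the others read 7.34 to 7.38. For Clock 1439314_at, WT line 1 read 6.72 where the others read 6.83 to 6.84, a small gap in a narrow group. For the gap Arntl2 minus Clock, WT line 2 had -2.89 where the others had -3.66 to -3.55, and for Nr1d2 1416958_at, Cry DKO line 2 read 10.94 where the others read 11.01 to 11.03. No member group of Arntl was among them.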

How the results depend on the processing

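The Arntl 1425099_a_at difference kept its direction and passed in all fits run that include it (-1.61 to -1.47 without 1 line, -1.59 to -1.56 otherwise). With a floor at the 60th percentile it was not tested. The number of members called was 2 without a floor or with one at the 20th percentile, and 0 with one at the 60th, where 1 repressor in place of 4 was called. Arntl2 1429688_at kept a difference of 0.81 without an intensity trend but did not pass. It ranged from 0.73 to 0.94 without 1 line. Clock 1418659_at reversed to -0.0235 with array weights and ranged from -0.0459 to 0.0791 without 1 line. Array weights gave 2 called receptors and no intensity trend 1 called cofactor. Without 1 line, between 481 and 861 probe sets, 1 to 2 receptors, 0 to 1 bHLH-PAS relatives and 1 to 2 cofactors were called. The shift of Arntl2 minus Clock passed as 0.87 with the mean over all probe sets and as 0.81 with a replicate block in limma (adjusted p = 0.00201). The cause of these changes was not tested. No label names anything that same-numbered lines share, and whether they share a batch or preparation is not known. The deviations of same-numbered lines had correlations of 0.286, 0.109, 0.203 and 0.0232 for numbers 1 to 4. The highest with a line of another number were 0.00904, -0.0154, 0.129 and 0.043, so 3 of 4 WT lines correlated best with their own number. The replicate block called 1423 probe sets in place of 1112 and changed no call of a member. Signal over background was not measured, and the 3 members below the floor are dim.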
